A study of Mus musculus with 8 samples.

Results

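Chromatin accessibility around 10 genes of the Krüppel-like factor family (Klf1, Klf2, Klf3, Klf4, Klf5, Klf6, Klf7, Klf9, Klf10 and Klf13) was described in mouse medullary thymic epithelial cells (mTECs). The members were taken by name, and the regions counted as theirs were those overlapping the gene body (GENCODE M21, mm10) or the 50 kb on either side of it. Of the 57124 accessible regions of the whole set, 77 met this rule, and 0 of them lay in the windows of more than 1 member. The assay was ATAC-seq, which reads out open chromatin as the places where a transposase can reach the DNA and leave a sequencing adapter. mTECs of wild-type mice a few weeks old, of the BL6N6 strain, were sorted from the thymus by Tspan8 and MHC class II into MHCIIlo and MHCIIhi cells that were Tspan8neg (Tspan8neg MHCIIlo, Tspan8neg MHCIIhi) or Tspan8pos (Tspan8pos MHCIIlo, Tspan8pos MHCIIhi). The labels give 2 biological replicates for each of these 4 groups, no treatment, and no word on whether animals were pooled. The study used the groups to ask how accessibility differs with Tspan8 and with MHCII. The 8 columns of read counts bear names that match no sample, so they were left out of every step, and neither the levels of accessibility nor the groups were compared. The values below are the position, width and sequence of regions merged over the whole study. They have no replicate error, a region may be open in only some of the groups, its width was set in part by peak calling and by the merging of peaks, and the sorted cell type could not be checked against its markers.

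Krüppel-like factors are transcription factors that bind DNA through zinc fingers at the end of the protein, which recognise GC-rich sequence such as the CACCC box and the GC box. They differ in the rest of the protein, which recruits different partners. Klf3 binds the corepressor CtBP, Klf1, Klf2, Klf4, Klf5, Klf6 and Klf7 are best known as activators, although several of them also repress, and Klf9, Klf10 and Klf13 recruit the corepressor Sin3A. In epithelia, Klf4 is known for its place in terminal differentiation and barrier formation, and Klf5 for its place in proliferating basal and crypt cells.

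The promoter sequences of 5 members are shown for comparison, 4 with an accessible region at the start and that of Klf1, which had none. The stretches were read from mm10 on the strand of the gene, 5′ to 3′, and end before the first annotated exon. Capitals mark the GC box (GGGCGG), the CACCC box (CCACNCCC), the CCAAT box (CCAAT) and the AP-1 motif (TGANTCA), each on either strand. A GC box and a CACCC box can overlap, and where they do the capitals run together. A match gives letters only and is not evidence of binding. Klf4 lies at chr4:55532476-55532725 on the minus strand, Klf13 at chr7:63938916-63939165 on the minus strand, Klf9 at chr19:23140976-23141225 on the plus strand, Klf6 at chr13:5861239-5861481 on the plus strand and Klf1 at chr8:84901732-84901927 on the plus strand.
Klf4: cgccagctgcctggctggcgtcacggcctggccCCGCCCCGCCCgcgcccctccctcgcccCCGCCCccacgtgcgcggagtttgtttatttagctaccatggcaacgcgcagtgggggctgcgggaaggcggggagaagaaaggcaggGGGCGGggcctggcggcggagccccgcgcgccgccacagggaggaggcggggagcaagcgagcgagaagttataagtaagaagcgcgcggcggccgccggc
Klf13: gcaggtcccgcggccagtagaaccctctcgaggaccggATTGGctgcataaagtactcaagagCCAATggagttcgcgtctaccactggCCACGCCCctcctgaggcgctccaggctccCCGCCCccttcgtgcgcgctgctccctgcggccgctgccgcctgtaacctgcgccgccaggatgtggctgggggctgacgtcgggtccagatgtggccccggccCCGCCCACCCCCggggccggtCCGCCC
Klf9: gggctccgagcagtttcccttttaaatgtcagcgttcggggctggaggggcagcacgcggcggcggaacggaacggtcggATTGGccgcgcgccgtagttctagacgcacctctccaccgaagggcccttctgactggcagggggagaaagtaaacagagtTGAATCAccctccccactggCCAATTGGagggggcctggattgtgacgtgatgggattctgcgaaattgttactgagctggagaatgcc
Klf6: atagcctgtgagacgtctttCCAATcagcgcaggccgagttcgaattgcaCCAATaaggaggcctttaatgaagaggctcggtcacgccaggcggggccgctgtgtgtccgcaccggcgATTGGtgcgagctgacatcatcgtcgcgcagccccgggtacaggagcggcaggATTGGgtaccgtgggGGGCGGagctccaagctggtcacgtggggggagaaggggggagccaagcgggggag
Klf1: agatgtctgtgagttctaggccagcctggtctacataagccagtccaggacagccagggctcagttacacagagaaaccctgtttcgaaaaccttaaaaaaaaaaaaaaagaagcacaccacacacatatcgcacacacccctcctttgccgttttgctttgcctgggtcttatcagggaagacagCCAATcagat
The 250 bases of Klf4 held 4 GC boxes and 0 matches to the other motifs. Those of Klf13 held 3 GC boxes, 2 CACCC boxes and 2 CCAAT boxes. Klf9 had 0 GC boxes, 3 CCAAT matches and 1 AP-1 match, and the 243 bases of Klf6 had 4 CCAAT boxes and 1 GC box. The 196 bases before Klf1 had 1 CCAAT box, and 67.3% of them were soft-masked as repeat.

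Regions away from the members' own promoters are shown where they were no wider than 300 bases and held at least 2 matches to the CACCC box, to the AP-1 motif or to 1 of the forms CCGGAAG and CAGGAAG of the ETS motif. They are given on the plus strand of mm10, and capitals mark these motifs on either strand. The Klf3 region is at chr5:64864791-64864931, the Klf5 region at chr14:99324637-99324716, the first Klf6 region at chr13:5837486-5837720, the second at chr13:5886952-5887081 and the Klf9 region at chr19:23162486-23162658.
Klf3: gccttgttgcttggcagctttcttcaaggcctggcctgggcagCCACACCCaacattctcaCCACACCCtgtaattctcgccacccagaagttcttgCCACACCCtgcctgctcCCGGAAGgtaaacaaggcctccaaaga
Klf5: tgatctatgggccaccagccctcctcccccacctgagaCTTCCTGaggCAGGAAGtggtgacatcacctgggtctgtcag
Klf6, first: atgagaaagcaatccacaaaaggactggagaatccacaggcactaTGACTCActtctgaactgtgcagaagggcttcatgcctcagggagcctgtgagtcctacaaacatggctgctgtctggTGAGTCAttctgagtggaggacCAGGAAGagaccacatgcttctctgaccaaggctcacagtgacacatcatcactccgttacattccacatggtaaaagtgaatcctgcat
Klf6, second: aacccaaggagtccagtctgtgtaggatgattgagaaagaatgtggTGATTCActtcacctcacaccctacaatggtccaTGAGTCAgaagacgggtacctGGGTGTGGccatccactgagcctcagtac
Klf9: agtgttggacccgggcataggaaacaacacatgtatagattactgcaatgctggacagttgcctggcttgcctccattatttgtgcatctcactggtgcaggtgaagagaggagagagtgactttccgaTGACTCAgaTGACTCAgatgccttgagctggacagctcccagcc
The intergenic region of 141 bases downstream of Klf3 held 3 CACCC boxes and 1 CCGGAAG. The region of 80 bases downstream of Klf5 held 2 CAGGAAG matches, on opposite strands. The Klf6 regions held 2 AP-1 matches each, and the intronic region of Klf9 held 2 AP-1 matches in tandem.

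The 77 regions covered 26.78 kb. By the place of their centre, 20 lay at a promoter (no more than 1000 bases before or 100 bases after the start of a GENCODE basic transcript), 5 in an exon, 23 in an intron and 29 between genes. The promoter share was 26% (95% Wilson interval 17.5 to 36.7%, which covers counting over regions only), beside 21.9% of the whole set. The order of these shares depended on the definition: counting a region as promoter only where it overlaps a start gave 20.8% (16 of 77), beside 22.2%. Each window was set around a gene and takes in its promoter, while the whole-set share is over all regions. Of the 20 promoter regions, 13 were the members' own. Introns held 29.9% and intergenic sequence 37.7% of the members' regions, beside 40.2% and 29.6% of the whole set. Exons held 6.49%, beside 8.36%. Taken along the direction of transcription, 24 regions lay upstream of the gene body, 21 within it and 32 downstream. For 58 of the 77, and for 43 of the 57 outside promoters, the member was the protein-coding gene with the nearest start. Klf3, Klf4, Klf5, Klf6, Klf7 and Klf9 had the nearest start for each of their regions, at 7, 6, 4, 15, 5 and 11. Klf2 had it for 2 of 4, Klf10 for 4 of 6, Klf13 for 3 of 9 and Klf1 for 1 of 10.

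**Figure D1:**
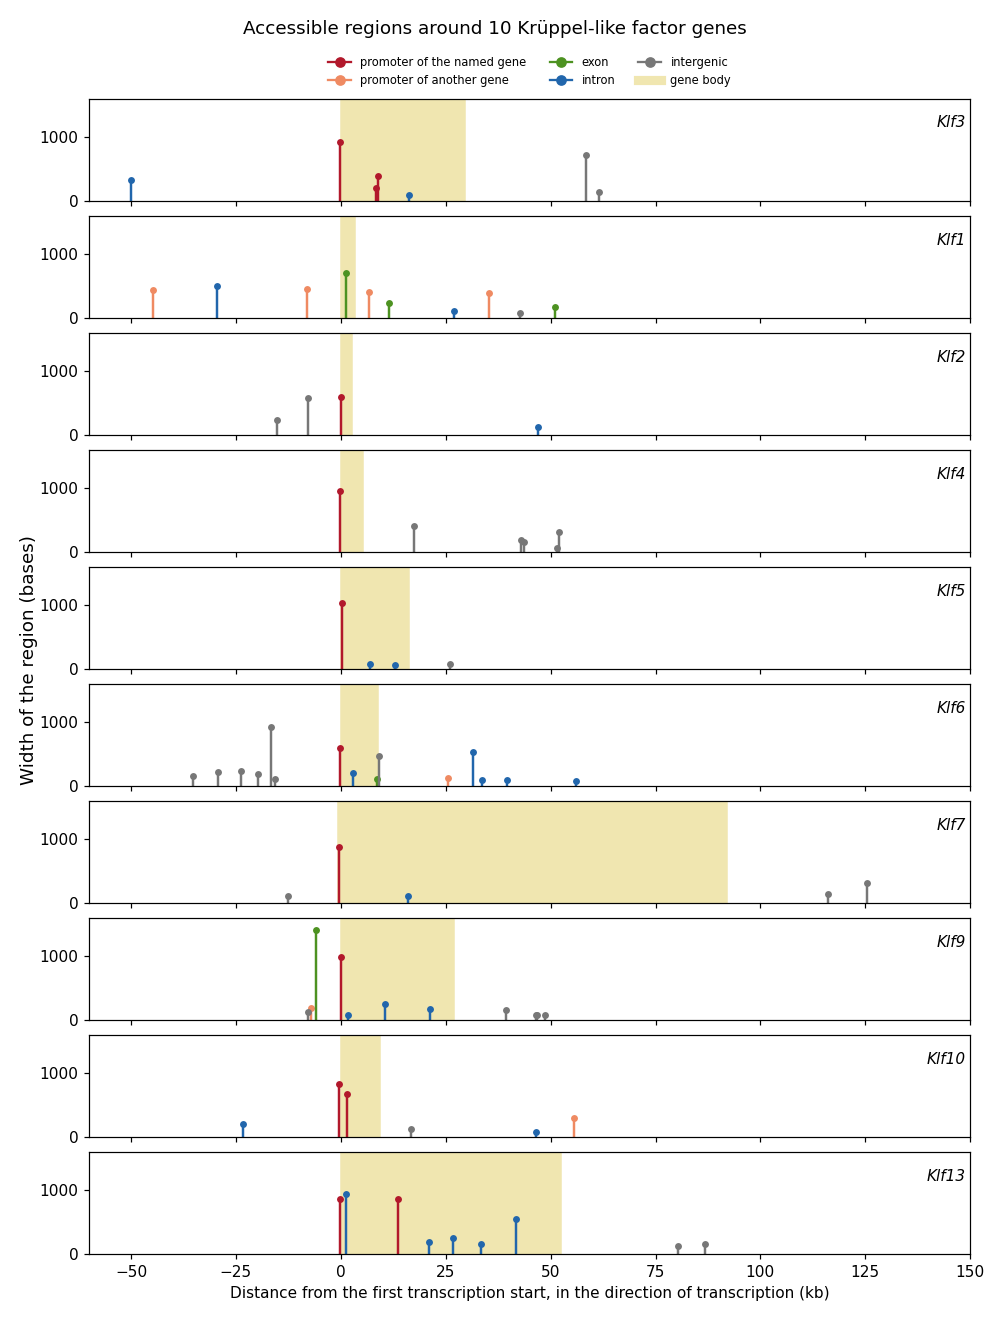
Position and width of each region around the 10 genes. The horizontal axis is the distance of the region's centre from the first transcription start in kb, along the direction of transcription, the height of each line is the region's width in bases, the colour is its class and the shaded band is the gene body. Klf1 has no region at its own promoter, Klf4 has its 5 further regions downstream, and Klf6 has the most regions, 15.

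A region lay at the own promoter of 9 of the 10 members, beside 48.6% of the 21938 protein-coding genes (10669 genes). Klf1 was the member without one. The 9 members had 13 such regions in all. Klf3 had 3, Klf10 and Klf13 had 2 each, and the other 6 had 1 each. Of the protein-coding genes with a promoter region, 8.19% (874 genes) had 2 or more. The members have 16 transcription starts among the basic transcripts, and 12 of them lay inside a region. The share over all starts was not computed. By gene, 8 of the 10 members had a region over a start of a basic transcript, beside 56.4% of protein-coding genes.

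Promoter regions of the members were wide. Their median width was 857 bases and their range 207 to 1042 bases, beside a median of 509 bases and quartiles of 324 and 722 bases for the 10681 promoter regions of protein-coding genes. Of the 13, 11 were wider than that median and 8 were wider than the upper quartile. Taking the widest region of each gene, the median was 874 bases for the 9 members and 555 bases for protein-coding genes. No test of this difference was run, since the regions have no replicates and the members were chosen with earlier results known. Outside promoters the members' regions had a median of 159 bases, beside 176 bases in the whole set. Regions under 200 bases made up 49.4% of the 77 (38 regions), beside 47.4% of the whole set.

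**Figure D2:**
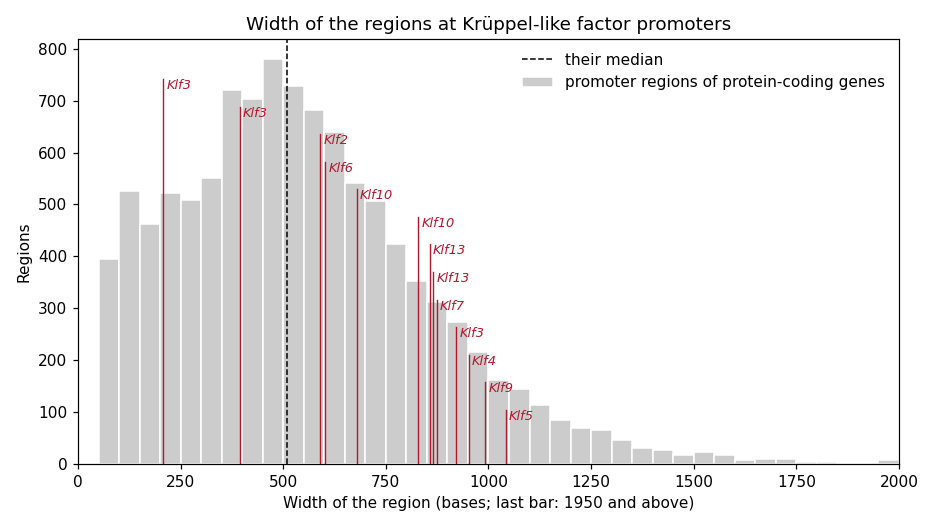
Width of the regions at Krüppel-like factor promoters against all promoter regions of protein-coding genes. The horizontal axis is the width in bases, the grey bars count regions, red lines mark the 13 members' regions (their height carries no value) and the dashed line marks the median of 509 bases. Lines for 11 of the 13 regions lie to the right of the dashed line.

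Klf3, also called basic Krüppel-like factor, had 7 regions in its window, or 5.40 per 100 kb. The region at its first start was 922 bases wide (chromosome 5 from 64802834 to 64803755), wider than 86.9% of the widest promoter regions of protein-coding genes. It covered 368 bases of exon, had a GC content of 77.7% and held 13 GC boxes and 0 CACCC boxes. The promoter of the locus C230096K16Rik lay in the same region, so that accessibility at this position cannot be given to either gene alone. A further start inside the gene had 2 narrower regions, of 207 and 394 bases, centred 8333 and 8947 bases downstream of the first start. Each of these held 1 CACCC box, and the wider covered 165 bases of Klf3 exon. Downstream of the gene, 58410 and 61473 bases from the first start, lay regions of 716 and 141 bases, the second being the one with 3 CACCC boxes printed above. Klf3 had 2.50 CACCC boxes per kb of region, the highest of the 10 members, and 0 AP-1 matches.

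Among the members known as activators, 44 regions were found in 6 windows, from 4 for Klf2 and for Klf5 to 15 for Klf6. They included 5 promoter regions of their own, at every one of the 6 but Klf1. The widths of these were 590 bases for Klf2, 602 for Klf6, 874 for Klf7, 952 for Klf4 and 1042 for Klf5. Klf2 and Klf6 thus lay near the middle of protein-coding genes, at percentiles 55.2 and 56.6, and Klf7, Klf4 and Klf5 in the upper part, at 84.1, 88.5 and 92.4.

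Klf1, the erythroid factor that activates the beta-globin gene, lies in a window crowded with other genes. The gene body (chromosome 8 from 84901928 to 84905291, plus strand) held 1 region, of 704 bases, from 84902909 to 84903612. Its centre was 1332 bases downstream of the start, 594 of its bases were Klf1 coding sequence, and it was wider than 82.7% of exonic regions. It held 6 GC boxes and 0 CACCC boxes. The next region upstream was 8096 bases from the start, at the promoter of Gcdh. Farsa, Gcdh, Dnase2a and Mast1 each had a promoter region in the window, so that 4 of the 10 regions were promoters of other genes. These widths were 438, 457, 409 and 392 bases. The density of 9.67 regions per 100 kb, at percentile 92.8 of protein-coding genes, therefore counts the regions of neighbours as well as the 1 nearest to Klf1. The absence of a region at the Klf1 start held under each of the 5 other definitions of a promoter, annotation and minimum width that were tried.

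Klf2, which maintains quiescence and controls migration of T cells and is known in endothelium, had 4 regions. Its promoter region of 590 bases (chromosome 8 from 72318659 to 72319248) ran over the start and covered 117 bases of exon, with coding sequence among them. Upstream lay intergenic regions of 578 and 228 bases, centred 7849 and 15194 bases before the start. The wider held 2 AP-1 matches and 1 POU octamer (ATGCAAAT). Both had the start of Gm10282 nearer than that of Klf2. Downstream the only region was one of 127 bases in an intron of Eps15l1, 46957 bases from the start.

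Klf4, known in skin and gut epithelium and as a reprogramming factor, had 6 regions, or 5.70 per 100 kb. The promoter region of 952 bases (chromosome 4 from 55532159 to 55533110) had a GC content of 75.8% and held 13 GC boxes, 1 AP-1 match and 0 CACCC boxes. The other 5 were intergenic and downstream, and the nearest was 17500 bases from the start. This one, of 412 bases, held 2 CACCC boxes and 1 CCGGAAG. The remaining 4 fell into pairs, at 42986 and 43747 bases and at 51403 and 51938 bases, with widths of 186, 155, 68 and 319 bases. Upstream, the next region of the whole set was 60827 bases away, beyond the window. Klf4 had the nearest protein-coding start for all 6.

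Klf5 had the widest promoter region of the 10 members, 1042 bases (chromosome 14 from 99298356 to 99299397). It ran into the first exon and covered 532 exonic bases, with 6 GC boxes, 2 CACCC boxes and 2 CCAAT boxes. The other 3 regions were among the narrowest: 71 and 68 bases in introns and 80 bases downstream, the last being the one with 2 CAGGAAG matches. Upstream of the start no region lay in the window, and the next was 121934 bases away. Klf5 thus had 3.44 regions per 100 kb, at percentile 46.0.

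Klf6, an immediate-early factor known for its binding to a core promoter element, had the most regions, 15, in a window of 108.9 kb. The density of 13.8 per 100 kb was higher than in 99.0% of protein-coding genes. Counting only the 13 regions outside promoters, the density was 11.9 per 100 kb, at percentile 99.7. By side, 7 lay upstream of the gene body, 2 within it and 6 downstream. All 15 had Klf6 as the nearest protein-coding start. Its own promoter region was of ordinary width (602 bases, chromosome 13 from 5861066 to 5861667) and held 4 CCAAT boxes and 2 GC boxes. Upstream, 6 intergenic regions lay between 15664 and 35128 bases from the start. The widest of these, 922 bases from 5844436 to 5845357, was wider than 99.5% of intergenic regions and held 5 AP-1 matches. Downstream, an intronic region of 531 bases in the locus Gm47507, from 5892753 to 5893283, held 4 AP-1 matches. The second Klf6 region printed above lies at the promoter of the same locus.

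Klf7, known in neurons and adipose tissue, has the longest gene of the 10, 92836 bases, and the lowest density, 2.59 per 100 kb at percentile 36.0. Its promoter region of 874 bases (chromosome 1 from 64121540 to 64122413) was centred 485 bases upstream of the first basic start and did not overlap it. The gene body as annotated reaches 791 bases further upstream than that start. Among comprehensive transcripts, 1 of the 3 starts of Klf7 lay inside a region. Within the gene, 1 more region was found, of 105 bases, 15947 bases from the start. The other 3 lay outside, at 12546 bases upstream and at 116114 and 125358 bases downstream, with widths of 102, 137 and 314 bases. None of the 5 held a CACCC box.

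The members that recruit Sin3A had 26 regions, from 6 for Klf10 to 11 for Klf9, and 5 promoter regions of their own. Klf9, a glucocorticoid-induced factor, had 8.67 regions per 100 kb, at percentile 89.0. Its promoter region was 992 bases wide (chromosome 19 from 23140669 to 23141660), at percentile 90.5, and held 6 CCAAT boxes, 3 GC boxes and 1 AP-1 match. The widest region of all 77 lay upstream of Klf9. It covered 1416 bases from 23134677 to 23136092, was centred 5842 bases before the Klf9 start on an exon of the locus 2410080I02Rik, and was wider than 99.6% of exonic regions. It held 4 CACCC boxes and 5 GC boxes. Inside the gene there were 3 intronic regions, of 85, 244 and 173 bases, the last being the one printed above. Downstream lay 4 regions, between 70 and 158 bases wide, 39368 to 48668 bases from the start.

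Klf10, an early gene induced by TGF-beta, had 2 wide regions near its start, of 829 bases (chromosome 15 from 38300652 to 38301480) and of 679 bases (from 38299008 to 38299686), each at a start of its own. The first held 3 CACCC boxes and 7 GC boxes. The second held 12 GC boxes and 0 CACCC boxes and had a GC content of 77.2%. The next regions were 23339 bases upstream and 16635 bases downstream of the first start, of 198 and 127 bases, and each held 1 AP-1 match. A region of 301 bases at the end of the window lay at the promoter of the locus Gm8705.

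Klf13, also known as a factor that activates the chemokine gene Ccl5 in T cells, had 9 regions, and 6 of them lay within the gene. Promoter regions of 857 bases (chromosome 7 from 63938668 to 63939524) and 865 bases (from 63924778 to 63925642) lay at the first start and at a start further into the gene, the second being centred 13705 bases downstream of the first start. They differed in sequence. The first had a GC content of 71.1% and held 6 GC boxes and 2 CACCC boxes, and the second had a GC content of 51.0% and held 0 of either, with 2 CAGGAAG matches and 1 AP-1 match. Next to the first, centred 1142 bases downstream of the start, lay the widest intronic region of the 77, of 944 bases, which also covered 279 bases of Klf13 coding sequence and was wider than 98.9% of intronic regions. The other 4 intronic regions were 546, 159, 256 and 184 bases wide, and for each of them the start of E030018B13Rik was nearer than that of Klf13. Upstream, the next region was 109830 bases away.

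Densities over the 10 windows ranged from 2.59 to 13.8 regions per 100 kb. Their median was 5.59, beside 3.76 for protein-coding genes (quartiles 1.64 and 6.36), and 8 of the 10 lay above that median. The 95% interval of the members' median, 3.44 to 9.67 per 100 kb, takes in 3.76. The members' median is thus not set apart from that of protein-coding genes. Against protein-coding genes that have a region at their own promoter, whose median was 4.87, 7 of the 10 lay above. These 7 include Klf1, which has no such region itself. Outside promoters the median was 3.84 per 100 kb for the members, beside 2.34 for protein-coding genes and 2.84 for those with a promoter region. Klf6, Klf1 and Klf9 stood highest, Klf13, Klf4, Klf10 and Klf3 lay between 5.40 and 5.90, and Klf2, Klf5 and Klf7 were lowest. With no replicates, neighbours in this order cannot be told apart by an error.

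**Figure D3:**
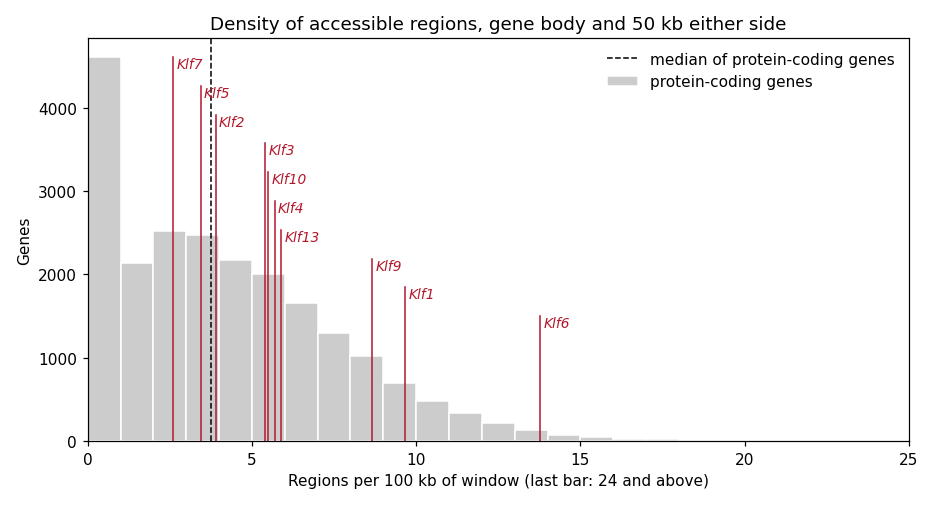
Regions per 100 kb in the windows of the 10 members against all protein-coding genes. The horizontal axis is the density, the grey bars count genes, red lines mark the members (their height carries no value) and the dashed line marks the median of 3.76. Klf6, at 13.8, lies in the upper tail, and Klf7 and Klf5 lie below the median.

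The member windows were set by distance, and regions close to their edges change with it. The closest that counted was a region of 325 bases across the edge of the Klf3 window (chromosome 5 from 64753148 to 64753472), with its centre 78 bases from the edge on the outer side. The next was a region of 177 bases inside the Klf1 window, centred 2319 bases from its edge. The closest that did not count were a region of 540 bases centred 4947 bases beyond the Klf1 window and one of 1193 bases centred 7535 bases beyond the Klf6 window (chromosome 13 from 5803351 to 5804543).

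Sequence composition of the members' promoter regions was GC-rich. The median GC content was 68.6% (range 50% to 77.7%), beside 65.3% over protein-coding promoter regions, and the median ratio of observed to expected CpG was 0.850 (range 0.147 to 1.03), beside 0.787. The lowest CpG ratio belonged to the region of 207 bases at the internal start of Klf3, and the internal start of Klf13 was also low, at 0.180. Outside promoters the GC median was 52.7%, beside 52.0%, and the CpG ratio 0.302, beside 0.254. No repeat-masked base was present in 5 of the 13 promoter regions and in 34 of the 57 others, beside 40.3% and 54% of the whole set.

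The CACCC box, the site that Krüppel-like factors are known to bind, was in 6 of the 13 own promoter regions, 46.2% (95% Wilson interval 23.2 to 70.9%), beside 34.4% of protein-coding promoter regions. Since wider regions have more room for a match, regions from 500 bases up to the members' widest were also compared. Of these, 4 of 11 among the members (36.4%) and 43.4% of 4816 in the whole set held one, at 0.869 and 0.906 matches per kb. Outside promoters, 10 of 57 (17.5%) held a CACCC box, beside 12% of 44623, and these 10 belonged to 6 members. Over all 77 regions the share was 24.7% (95% Wilson interval 16.4 to 35.4%), beside 16.5% of the whole set. Of the 19 regions behind this share, 5 lay in the Klf3 window. Both intervals treat regions as independent, although they cluster by gene, and cover counting over regions only. The GC box was in 11 of the 13 promoter regions (84.6%), at 7.34 matches per kb, beside 77.1% and 5.34 per kb. The CCAAT box was in 9 (69.2%), at 2.24 matches per kb, beside 44.3% and 1.45 per kb.

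The AP-1 motif, known for Fos and Jun factors, was searched as TGANTCA, with any base in the middle. Forms that differ in that base were not counted apart, so a match need not be a site of these factors. The match printed for the Klf9 promoter is TGAATCA, and 1 of those in the second Klf6 region is TGATTCA. In this loose form the motif was in 4 of the 13 promoter regions (30.8%), beside 9.51% of protein-coding promoter regions. Per length of region, which differs between these sets, there were 0.408 and 0.192 matches per kb. Those 4 were the regions of Klf4 and Klf9 and 1 region each of Klf10 and Klf13, with 1 match each. Outside promoters it was in 17 of 57 (29.8%), beside 24.3%, at 1.84 matches per kb, beside 1.20. Klf6 held 13 of these 27 matches. Of its 13 regions outside promoters 5 had AP-1, at 3.81 per kb, while the other members had it in 12 of 44 (27.3%), at 1.25 per kb. At least 4 matches in 1 region, as in the 922-base and the 531-base region of Klf6, occurred in 50 regions outside promoters of the whole set (0.112%), and in 19 of the 4580 that were at least 500 bases wide (0.415%). In the windows of Klf1 and Klf3, 0 regions held an AP-1 match.

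ETS factors, which include Elf3 and Ehf, were represented by their core in 2 contexts. The form CCGGAAG was in 0 of the 13 promoter regions, beside 22.6% of protein-coding promoter regions, and in 4 of the 57 others (7.02%), beside 3.27%. The form CAGGAAG was in 3 of the 13 (23.1%), beside 18.3%, at 0.408 and 0.383 matches per kb, and in 11 of the 57 (19.3%), beside 11.9%. The TATA box (TATAAA) was in 2 of the 13 (15.4%), beside 5.57%, at 0.306 and 0.113 matches per kb, and 0 held the cAMP response element (TGACGTCA) or the POU octamer, beside 4.25% and 1.74%. The GATA motif (AGATAA) was in 1 of the 13 (7.69%), a region at the internal start of Klf3, beside 6.06%.

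**Figure D4:**
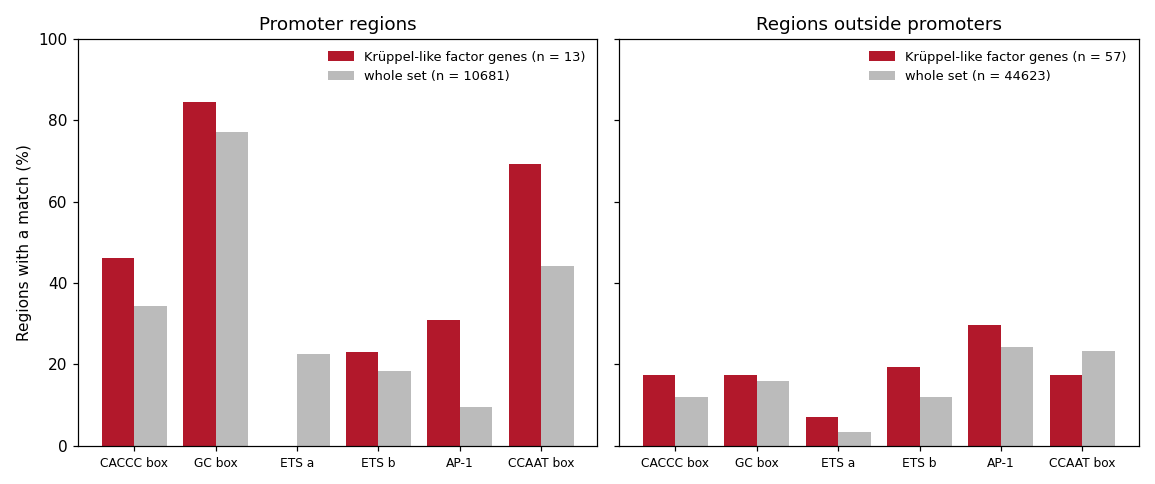
Share of regions with a motif, in percent, at promoters (left) and outside them (right), for the Krüppel-like factor genes (red) and the whole set (grey). ETS a is CCGGAAG and ETS b is CAGGAAG. AP-1 stands at 30.8% beside 9.51% at promoters and at 29.8% beside 24.3% outside them, and ETS a is at 0 in the members' 13 promoter regions.

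The same letters were searched in RefSeq promoters of fixed length (300 bases, from 250 before to 50 after the start, GRCm38.p6), where width plays no part. Of the 10 members 8 were matched, all but Klf5 and Klf10. The shares beside them are over 32851 promoters with or without an accessible region, unlike the protein-coding promoter regions used above. A CACCC box was in 2 of the 8, with 2 matches in Klf13 and 1 in Klf7, beside 17.6% of 32851 promoters. A GC box was in 6 of the 8, beside 35.7%, with 6 matches in Klf3 and 4 in Klf4. A CCAAT box was in 4, beside 37.4%, and AP-1 was in 1, Klf9, beside 7.81%. TATAAA was in 0 of the 8, beside 13.6%, and CCGGAAG was in 0, beside 8.86%. CAGGAAG was in 1, Klf7, beside 13.3%.

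Other genes of the wider family were counted in the same way. Of the 7 other Krüppel-like factor genes, 3 had a region at their own promoter, so that 12 of 17 in all had one. Those without one were Klf8, Klf11, Klf14 and Klf17, and the nearest region was centred 106, 374, 240 and 69602 bases from a start of each. For Klf8, Klf11 and Klf14 that region lay downstream of the start, past the limit of 100 bases. Of the 9 Sp genes, whose zinc fingers are related and bind the GC box, 6 had a promoter region and Sp5, Sp7 and Sp8 did not. The median density was 2.92 regions per 100 kb for the 7 and 4.86 for the Sp genes, and the median width of the widest promoter region was 848 and 840 bases, beside 874 bases for the 9 members.

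**Figure D5:**
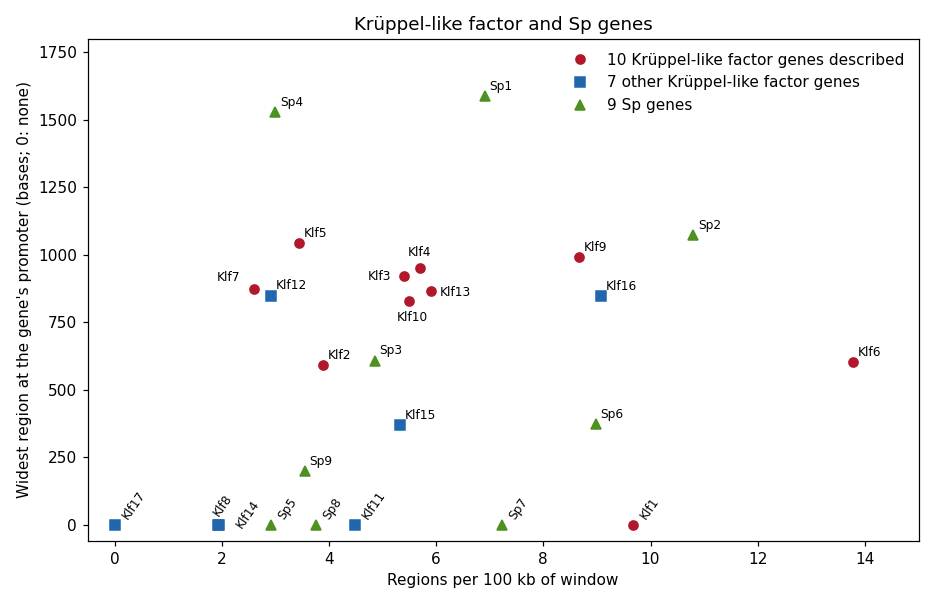
Density of regions against the widest promoter region for the Krüppel-like factor and Sp genes. The horizontal axis is regions per 100 kb of window, the vertical axis is the width in bases of the widest region at the gene's own promoter (0 where there is none), and the symbols give the gene group. Klf6 has the highest density, 13.8, with a promoter region of 602 bases, and Klf1 has a high density, 9.67, with no promoter region.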

How the data were processed

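ATAC-seq had been done on 8 samples of sorted mTECs, 2 in each of 4 groups. The authors aligned reads to mm10 with Bowtie2, kept uniquely and well aligned pairs (SAMtools), removed duplicates (Picard), and made one set of regions by merging (bedtools) the broad peaks of MACS2. The sources used here do not say if peak calling pooled the samples. Counting was done with featureCounts 2.0.3, per the file headers. Of the deposited table, start, end and width of each region were used. The 8 count columns match no label and were not used, so the planned edgeR comparison of groups was not run and depth is not analysed here. Merging joins neighbouring peaks and widens regions, and removal of multimapping reads thins regions in repeats.

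Regions were annotated by their centre with GENCODE M21 basic transcripts in Python 3.11.15 (pandas 2.3.3, numpy 2.4.6, pysam 0.24.0), and scipy 1.17.1 gave the Wilson intervals. The percentile of a member is its place among 21938 protein-coding genes or, for a width, among the widest promoter regions of those genes or the regions of its class. Motifs were exact matches on either strand, and the search was tested on simulated data. The members, lists and motifs were chosen with earlier results of these data known. All 10 members were named. Other genes were named where they lacked a promoter region, held as many promoter regions of a window as all other genes together or shared a region with a member, and loci named beyond that (Farsa, Gcdh, Dnase2a, Mast1, 2410080I02Rik, Gm47507, Gm8705, Gm10282, Eps15l1, E030018B13Rik) were chosen after their values were seen. Alternatives varied the flank, the promoter definition, the annotation, the minimum width and the motif.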

Additional observations from a re-analysis of the deposited data

How the results depend on the processing

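Of 33 alternatives over 7 results, 21 left the value within 1.5 times of a count or inside the 95% interval of a share or median, and 12 moved it. Some of these bands were wide. That for members with a promoter region, 6 to 13.5, reaches beyond the 10 members, so a rise could not leave it. That for the CACCC share of the 13 promoter regions was 23.2 to 70.9%. A value inside such a band says little about stability. With 10 kb in place of 50 kb on either side, regions fell from 77 to 38, their promoter share was 42.1% (21.9% in the whole set) and the median density 9.95 per 100 kb (3.88 over protein-coding genes). With 100 kb there were 125 regions. With regions of at least 200 bases there were 39, with a promoter share of 46.2% (34.6%), a median density of 2.89 (2.08) and CACCC boxes in 38.5% (25.8%). With the central 200 bases searched, the CACCC box was in 23.1% of the members' promoter regions (3 of 13, beside 15.2%). It was in 15.6% of all their regions (9.09%). With the looser letters CCNCNCCC these shares were 100% (80.0%) and 49.4% (39.8%). In these, each share and density of the members stayed above that of the whole set. The promoter share fell below it where a region had to overlap a start (20.8%, beside 22.2%). So did the CACCC share of promoter regions from 500 bases up to the members' widest (36.4%, beside 43.4%). Each window was set around a gene and takes in its promoter, while the whole-set promoter share is over all regions. A higher promoter share in the windows thus follows in part from how they were set. Where the region had to overlap a start of a basic transcript, 8 members had a promoter region, since Klf7 joined Klf1 in lacking one. Among comprehensive transcripts, 1 of the 3 starts of Klf7 lay inside a region, while the 1 start of Klf1 did not. In each other alternative 9 had one. The share over protein-coding genes moved as well, from 48.6% in the main setting to 56.4% with that overlap. It was 62.5% with a promoter of 2000 bases before to 500 after a start, and 55.6% with comprehensive transcripts. It was 48.4% with protein-coding transcripts only and 44.4% with regions of at least 200 bases. The 5 other settings foreseen for the comparison of groups were not run. No paired analysis was possible because no column of counts could be tied to a replicate. Widths and numbers of regions depend on a depth that is not known here.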
